A study of Mus musculus with 6 samples.

Results

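The 10 genes described here encode cyclin-dependent kinase (CDK) inhibitors and components of the p53 pathway. They were chosen by name and not by a threshold on their values. Cdkn1a, Cdkn1b, Cdkn2a, Cdkn2c and Cdkn2d are CDK inhibitor genes, and Trp53, Mdm2, Ccng1, Btg2 and Phlda3 are the p53 gene and 4 of its target genes. Cdkn1a is also a p53 target. All 10 were among the 17469 genes of the expression table and among the 12701 genes with enough counts to be tested.

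RNA was sequenced from 3 libraries of OCN-Cre;Ai9 mice, called controls here, and 3 libraries of TgAPPsweOCN;Ai9 mice, called transgenic for their APPswe allele, all 6 months old and untreated. OCN-Cre is a Cre recombinase under control of the osteocalcin promoter, and Ai9 makes the red fluorescent protein tdTomato once Cre has acted. Both genotypes carry these alleles, in a C57BL/6 background. TgAPPsweOCN mice also carry human APPswe, the Swedish mutant of the amyloid precursor protein, behind a stop cassette that Cre removes, so that the strong ubiquitous CAG promoter drives it. The cells were tdTomato-positive cells sorted from cultures of adherent bone marrow stromal cells of the long bones. The study gives mice as the replicates of this experiment, but the labels do not tie a library to a single mouse or culture, so p-values measure the spread between these libraries, which may be technical. The comparison asks how the brakes of the cell cycle differed between the genotypes, and whether Cdkn1a moved together with other p53 targets.

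CDK inhibitors block the kinases that drive cells through the division cycle. The Cip/Kip proteins p21 (Cdkn1a), p27 (Cdkn1b) and p57 (Cdkn1c) act on several cyclin-CDK complexes, whereas the INK4 proteins encoded by Cdkn2a, Cdkn2b, Cdkn2c and Cdkn2d bind Cdk4 and Cdk6. The transcription factor p53 is held at a low level by the ubiquitin ligase Mdm2, whose gene p53 itself activates, and stress that stabilises p53 raises Cdkn1a, Mdm2, Ccng1, Btg2 and Phlda3 in many cell types. Cdkn1a is also activated by factors other than p53. In senescent cells p16Ink4a, a product of Cdkn2a, and p21 are the usual marker proteins.

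The promoters of Cdkn1a, Mdm2 and Ccng1 are shown because these p53 targets were higher in transgenic libraries and carry the decamer that, in a pair, makes up a p53 binding site. The sequences come from RefSeq on GRCm38.p6 and lie upstream of the annotated gene start. Each is 80 bases long and runs 5′ to 3′ on the gene's own strand, with capitals marking matches to the p53 half-site decamer.
Cdkn1a, chr17:29090882-29090961, plus strand: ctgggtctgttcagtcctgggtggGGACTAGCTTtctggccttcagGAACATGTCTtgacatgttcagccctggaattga
Mdm2, chr10:117710900-117710979, minus strand: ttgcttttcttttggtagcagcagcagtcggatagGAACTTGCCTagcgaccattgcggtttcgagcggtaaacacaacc
Ccng1, chr11:40755427-40755506, minus strand: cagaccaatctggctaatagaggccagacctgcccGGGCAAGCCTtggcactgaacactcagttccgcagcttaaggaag

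In Cdkn1a the matches GGACTAGCTT and GAACATGTCT began 73 and 51 bases before the outermost of its 2 RefSeq starts, while the window before the other (chr17:29093519-29093768) had no match. In Mdm2 GAACTTGCCT began 186 bases before the start. In Ccng1 GGGCAAGCCT began 185 bases before the transcript start of the RefSeq promoter window, which is 162 bases before the outermost start of the gene. The decamer is its own reverse complement, so each match counts for both strands. Within 250 bases before the transcript start of a window, 5 of the 10 genes had a match, the others being Trp53 and Cdkn2d, where the match of Cdkn2d lay inside the annotated gene. The same decamer was present in 8.2% of all 27025 genes with a RefSeq promoter window, and in 7 of the 18 further p53 targets with a window. A window with 2 or more matches, as in Cdkn1a, made up 0.259% of all 32851 windows. No match was found in this window for Cdkn1b, Cdkn2a, Cdkn2c, Btg2 or Phlda3. A match is a description of the letters and was not tested for binding in these cells.

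Differences in counts were tested by the quasi-likelihood method of edgeR, with p-values adjusted by Benjamini-Hochberg over all 12701 genes, and levels are given in CPM, the unit of counts scaled by the library total, here corrected by TMM factors. A gene was called up or down at an adjusted p of at most 0.05 and a log2 fold change no smaller than 1 in size, and raised or lowered at the adjusted p alone. A difference is transgenic (TgAPPsweOCN;Ai9) over control throughout. The genotypes differed widely: 8.9% of all genes tested were called up, 9.2% called down, 32.5% raised and 31.5% lowered, and in 69.7% the CPM values of the genotypes did not overlap. Without TMM scaling the calls moved from 1130 up and 1169 down to 846 up and 1732 down, as the median log2 fold change of all genes went from −0.019 to −0.23.

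Library totals ran from 19340791 to 19801073 estimated counts in controls and from 21677455 to 22037830 in transgenic libraries, so that 3 counts correspond to 0.141 to 0.150 CPM. App rose from 842.3 ± 11.2 CPM (SD, n = 3) to 1153 ± 11.8 CPM (n = 3), and reads of the mouse gene and the human transgene could not be separated in this value. The markers of the labelled osteoblast lineage were mixed. Bglap, the osteocalcin gene whose promoter drives Cre, had at most 10 counts in any library, whereas the collagen genes Col1a1 (248 ± 1.14 CPM in controls, SD, n = 3) and Col1a2 (253.9 ± 17.7 CPM) were plainly present, and Runx2 (10.2 ± 1.57 CPM) and Alpl (6.86 ± 0.0722 CPM) were detected at low levels. The summed FPKM (fragments per kilobase of transcript, scaled to library size) of 10 osteoblast and stromal markers was 133 to 158 in controls and 98.4 to 166 in transgenic libraries. The sum was far higher for 10 myeloid markers, which came to 16350 to 17177 FPKM in controls and 13647 to 17384 FPKM in transgenic libraries. Near-equal sums hid changes within the myeloid list, of which 5 of 10 were raised and 4 lowered, against 32.5% and 31.5% of all genes tested. Of these, 3 were called up (log2 fold change 1.89 for Adgre1, 1.26 for Itgam and 1.11 for Fcer1g) and 3 called down (−2.38 for Mrc1, −1.49 for Csf1r and −1.26 for Cd68). Of the 9 stromal markers tested, 1 was raised and 2 were lowered. The part of these differences in the results below was not tested. Neutrophil markers summed to 10.45 to 41.8 FPKM in controls and 17.3 to 39.3 FPKM in transgenic libraries, erythroid markers to 0.03 to 0.15 and 0.33 to 0.58 FPKM, and lymphoid markers to at most 0.16 FPKM in any library, with Cd3e and Cd79a under 3 counts throughout. In bulk RNA of this kind, fewer cells of a type and less RNA per cell cannot be told apart.

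Of the 10 genes, Cdkn1a, Ccng1 and Phlda3 were called up and Cdkn2c was called down, 3 and 1 of 10 against 8.9% and 9.2% of all genes tested. Mdm2 was raised and Cdkn1b, Cdkn2d and Trp53 were lowered without reaching the fold threshold, and Cdkn2a and Btg2 did not pass the test. Thus 4 of 10 were raised and 4 of 10 lowered, against 32.5% and 31.5% of all genes, and 8 of 10 had no overlap between the genotypes, against 69.7%. The median log2 fold change of the 10 was −0.13, since inhibitors and p53 targets lay on both sides of 0. Among the 5 p53 targets, Cdkn1a included, 4 were raised and 3 called up, against 32.5% and 8.9% of all genes tested, with a median of 1.18 against −0.019.

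**Figure D1:**
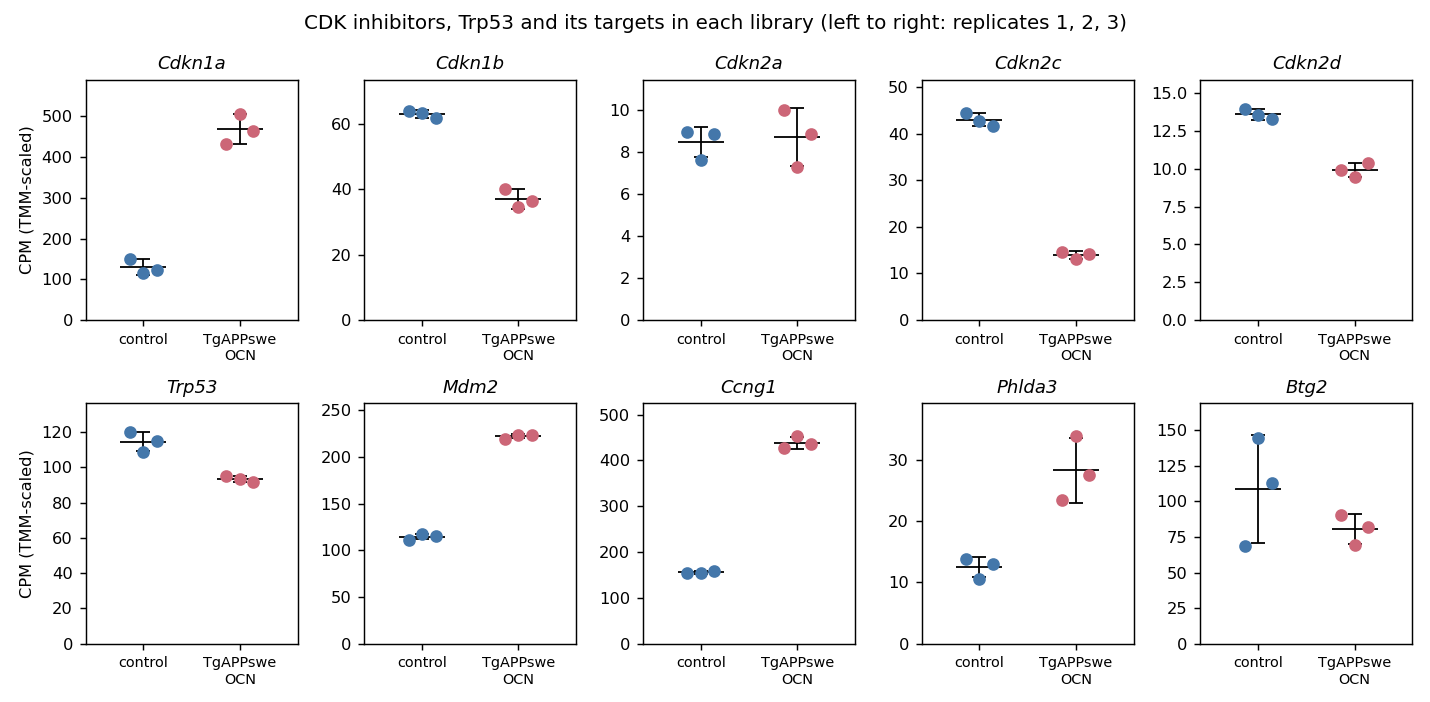
TMM-scaled CPM (linear y axis from 0) of the 10 genes in the 3 control (blue) and 3 TgAPPsweOCN;Ai9 (red) libraries, with the mean and SD in black. Cdkn1a, Mdm2, Ccng1 and Phlda3 were higher in all 3 TgAPPsweOCN;Ai9 libraries, Cdkn1b, Cdkn2c, Cdkn2d and Trp53 were lower in all 3, and Cdkn2a and Btg2 overlapped.

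Cdkn1a (gene ID 12575, chr17:29090979-29100722, mm10), which encodes p21, had 150.8, 114.3 and 123.5 CPM in the control libraries and 432.8, 506.7 and 464.6 CPM in the transgenic libraries. The lowest transgenic library was far above the highest control, and the spread within a genotype was small beside the gap. The mean went from 129.5 ± 19.0 to 468.0 ± 37.1 CPM (SD, n = 3 each), 3.61-fold, with a log2 fold change of 1.85 (SE 0.109, 95% interval 1.603 to 2.103, edgeR adjusted p = 2.05e-06). With 3 libraries against 3, an exact permutation test over libraries cannot give a two-sided p below 0.1, and it gave 0.1 for this gene and for the other 7 genes without overlap.

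Cdkn1b (12576, chr6:134920401-134925525), encoding p27, went the opposite way. It had 63.95, 63.5 and 61.8 CPM in controls and 40.3, 34.5 and 36.4 CPM in transgenic libraries. The groups did not overlap, and the log2 fold change was −0.77 (SE 0.0686, 95% interval −0.92 to −0.61, adjusted p = 2.08e-05 in edgeR). So the broadly expressed Cip/Kip genes moved apart: p21 transcripts rose and p27 transcripts fell.

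Cdkn2c (12580, chr4:109660876-109666756), which encodes the INK4 protein p18, had the largest decrease of the 10. Control libraries had 44.5, 42.8 and 41.8 CPM and transgenic libraries 14.7, 13.0 and 14.2 CPM. Every transgenic library was well below every control. The mean fell from 43.0 ± 1.39 to 13.97 ± 0.851 CPM (SD, n = 3 each), with a log2 fold change of −1.62 (SE 0.0715, 95% interval −1.79 to −1.46, edgeR adjusted p = 4.15e-07).

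Cdkn2d (12581, chr9:21288459-21291421), encoding the INK4 protein p19Ink4d, had 13.97, 13.5 and 13.3 CPM in controls and 9.93, 9.44 and 10.4 CPM in transgenic libraries. The groups stood apart by a smaller margin, with a log2 fold change of −0.45 (SE 0.0872, 95% interval −0.65 to −0.25, edgeR adjusted p = 0.00182). Cdkn2a (12578, chr4:89274473-89294619), whose single table entry covers both p16Ink4a and the Mdm2-binding protein p19Arf, had 8.93, 7.64 and 8.85 CPM in controls and 9.98, 7.26 and 8.88 CPM in transgenic libraries. The range in transgenic libraries contained that in controls, and the log2 fold change of 0.039 (SE 0.141, 95% interval −0.29 to 0.36) had an edgeR adjusted p of 0.827. The 95% interval leaves room for differences of up to 0.36 in size on the log2 scale, and the sign of the value turned under other scalings.

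The 3 CDK inhibitor genes outside the 10 all passed the test. Cdkn2b (p15Ink4b), the neighbour of Cdkn2a at chr4:89306289-89311032, was called up, with 6.75, 6.98 and 5.84 CPM in controls and 19.1, 12.6 and 16.6 CPM in transgenic libraries (log2 fold change 1.30, SE 0.161, edgeR adjusted p = 0.000145). Its groups did not overlap, unlike those of Cdkn2a next to it. Cdkn1c (p57), at a low level, had 2.42, 4.27 and 2.82 CPM in controls and 1.05, 0.823 and 1.04 CPM in transgenic libraries (log2 fold change −1.70, SE 0.277, edgeR adjusted p = 0.000712). Cdkn3, a CDK-associated phosphatase gene, had 3.04, 3.47 and 4.64 CPM in controls and 1.35, 2.23 and 1.44 CPM in transgenic libraries (log2 fold change −1.15, SE 0.261, edgeR adjusted p = 0.0045). Both were called down. Over the 7 Cip/Kip and INK4 genes, 2 were raised, 4 lowered and 1 did not pass, against 32.5% and 31.5% of all genes, with a median of −0.45 on the log2 scale.

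**Figure D2:**
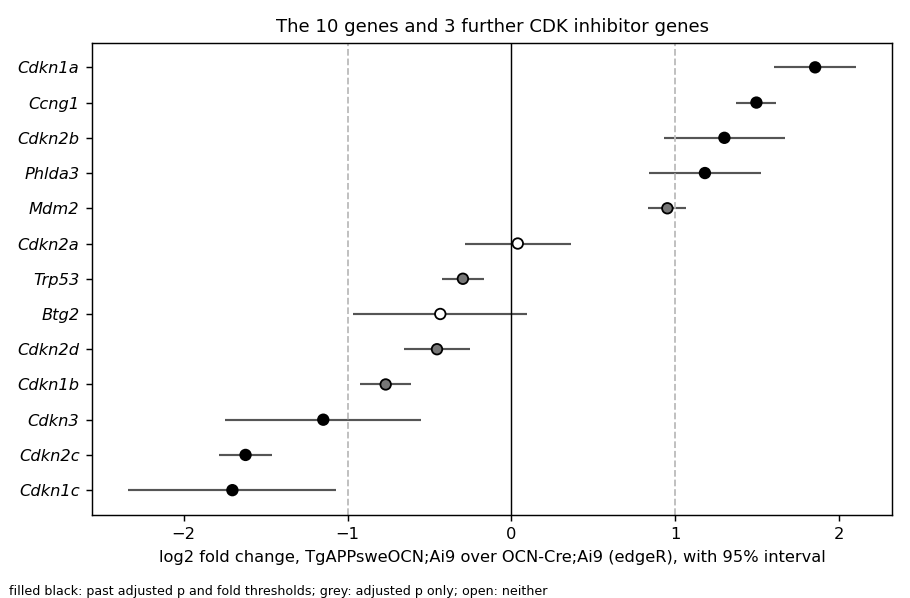
The log2 fold change of TgAPPsweOCN;Ai9 over control (x axis) of the 10 genes and 3 further CDK inhibitor genes, with 95% intervals from edgeR. Black points passed the adjusted p and the fold threshold (dashed lines at −1 and 1), grey points the adjusted p alone, and the intervals of the open points, Cdkn2a and Btg2, span 0.

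Per unit of transcript length, the makeup of the inhibitor pool shifted towards p21. These quantities were chosen after the values were seen. The summed FPKM, unlike shares and ratios within a library, depend on scaling between libraries and carry no TMM correction. By limma on log2(FPKM + 0.1) the median log2 fold change of all genes tested was −0.22, against −0.019 with TMM. The FPKM of the 7 Cip/Kip and INK4 genes summed to 174.3, 151.4 and 156.7 in controls and to 268.6, 304.5 and 286.7 in transgenic libraries. Cdkn1a made up 50.3%, 43.99% and 46.1% of this sum in controls and 79.2%, 84.9% and 81.6% in transgenic libraries. Without Cdkn1a, the other 6 genes summed to 86.7, 84.8 and 84.5 FPKM in controls and 55.8, 45.9 and 52.75 FPKM in transgenic libraries. Thus the summed transcripts of the pool were 1.78-fold higher while the part from genes other than Cdkn1a was lower in every transgenic library (exact permutation p = 0.1 for each of the 3 quantities, the smallest possible).

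The FPKM ratio of Cdkn1a to Cdkn1b was 2.99, 2.28 and 2.53 in controls and 13.6, 18.6 and 16.2 in transgenic libraries. That of Cdkn1a to Cdkn2c was 3.35, 2.65 and 2.81 in controls and 27.8, 37.9 and 30.4 in transgenic libraries. For the neighbours Cdkn2b and Cdkn2a, the ratio of the former to the latter was 0.461, 0.560 and 0.402 in controls and 1.14, 1.07 and 1.13 in transgenic libraries. None of these ratios overlapped between the genotypes.

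**Figure D3:**
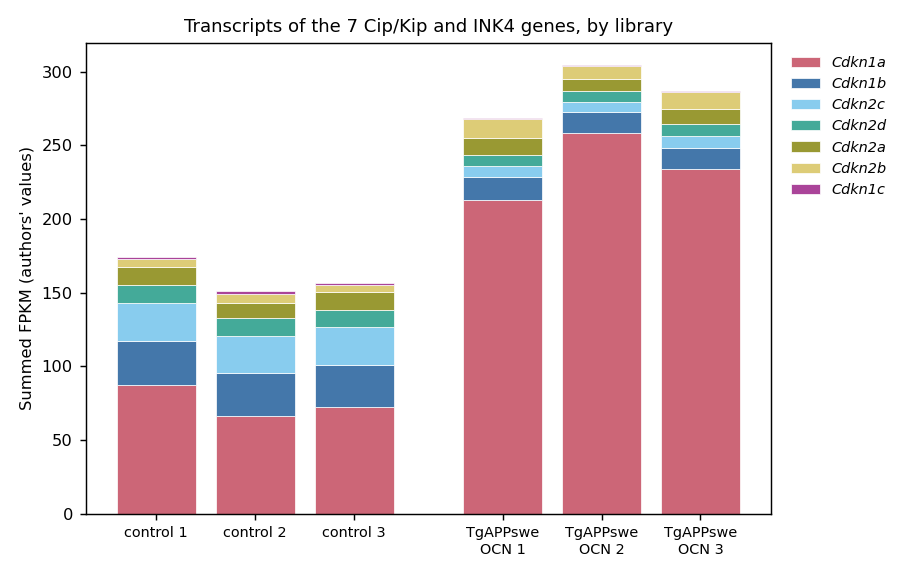
Summed FPKM (y axis, the authors' deposited values) of the 7 Cip/Kip and INK4 genes in each library, stacked by gene. The Cdkn1a segment made up 43.99% to 50.3% of the bar in controls and 79.2% to 84.9% in TgAPPsweOCN;Ai9, while the segments above it summed to 84.5 to 86.7 FPKM and 45.9 to 55.8 FPKM.

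Trp53 (22059, chr11:69580348-69591873), the p53 gene, had 120.1, 109.0 and 114.8 CPM in controls and 94.9, 93.4 and 91.7 CPM in transgenic libraries. All 3 transgenic libraries were below all controls, by a small margin (0.814-fold, log2 fold change −0.30, SE 0.0569, 95% interval −0.43 to −0.17, edgeR adjusted p = 0.00182). Transcript levels do not show the amount of p53 protein, which is set largely by its breakdown.

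Mdm2 (17246, chr10:117688875-117710758), the ubiquitin ligase gene that p53 activates, had 111.5, 116.9 and 115.8 CPM in controls and 219.4, 223.0 and 223.1 CPM in transgenic libraries. Values within a genotype were close together and the groups far apart, with a log2 fold change of 0.95 (SE 0.05035, 95% interval 0.84 to 1.07, edgeR adjusted p = 1.1e-06), just under the fold threshold. Its counts were fractional in all 6 libraries, so some of its reads were shared between genes by the authors' estimation. The FPKM ratio of Mdm2 to Trp53 was 0.496, 0.577 and 0.529 in controls and 1.27, 1.30 and 1.32 in transgenic libraries, so that the regulator's transcript was below that of p53 in every control and above it in every transgenic library.

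Ccng1 (12450, chr11:40748552-40755309) encodes cyclin G1, a p53 target that takes part in the feedback on p53. It had 154.6, 153.5 and 158.8 CPM in controls and 426.3, 453.2 and 436.2 CPM in transgenic libraries. The groups were far apart, at 2.82-fold and a log2 fold change of 1.49 (SE 0.0533, 95% interval 1.37 to 1.62, edgeR adjusted p = 1.72e-07), the smallest adjusted p of the 10 genes. The FPKM ratio of Cdkn1a to Ccng1 was 1.80, 1.38 and 1.44 in controls and 1.87, 2.05 and 1.97 in transgenic libraries, 1.28-fold higher in the means, and the lowest transgenic library was just above the highest control.

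Phlda3 (27280, chr1:135766085-135769134), whose product restrains Akt at the membrane, had 13.7, 10.6 and 13.1 CPM in controls and 23.4, 33.8 and 27.5 CPM in transgenic libraries. The groups did not overlap, with a log2 fold change of 1.18 (SE 0.149, 95% interval 0.84 to 1.52, edgeR adjusted p = 0.000156). Its call rested on the scaling: the log2 fold change was 0.97 without TMM factors and 0.89 to 0.95 by limma on log2 FPKM, under the fold threshold though still past the adjusted p. When the values without TMM factors were centred on the median of all tested genes, Phlda3 was again called up.

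Btg2 (12227, chr1:134074865-134079155), an antiproliferative gene induced early by p53, did not move with the other targets. It had 68.8, 144.5 and 113.1 CPM in controls and 90.2, 69.0 and 82.4 CPM in transgenic libraries. The lowest control was below all transgenic libraries and the other controls above them, and the coefficient of variation was 34.97% in controls against 13.3% in transgenic libraries. The log2 fold change of −0.43 (SE 0.232, 95% interval −0.97 to 0.10) had an edgeR adjusted p of 0.133. Without control library 1 it was −0.69 with an adjusted p of 0.00303, and without TMM factors −0.65 with an adjusted p of 0.0363, so control library 1 and the scaling each decided whether Btg2 counted as lowered. In no alternative was Btg2 higher in transgenic libraries.

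The order of levels per length also changed. In controls the mean FPKM ran from Cdkn1a (75.5 ± 10.9, SD, n = 3) and Trp53 (71.6 ± 3.41), whose values overlapped, through Ccng1 (49.1 ± 1.05), Btg2 (38.8 ± 13.6), Mdm2 (38.1 ± 1.07), Cdkn1b (29.05 ± 0.436) and Cdkn2c (25.6 ± 0.507) to Cdkn2d (12.2 ± 0.264), Cdkn2a (11.3 ± 0.987) and Phlda3 (9.60 ± 1.26). Btg2 spanned the values of Ccng1, Mdm2, Cdkn1b and Cdkn2c there, and those of Cdkn2a and Phlda3 overlapped. In transgenic libraries the order ran from Cdkn1a (235.1 ± 23.0) and Ccng1 (119.5 ± 6.25), which stood apart from each other, through Mdm2 (65.1 ± 1.48), Trp53 (50.3 ± 0.778), Btg2 (24.7 ± 2.86), Phlda3 (18.8 ± 3.82) and Cdkn1b (14.7 ± 0.878) to Cdkn2a (10.05 ± 1.55), Cdkn2d (7.67 ± 0.348) and Cdkn2c (7.39 ± 0.491). Neighbours whose values overlapped there were Btg2 with Phlda3, Phlda3 with Cdkn1b, and Cdkn2d with Cdkn2c. Trp53 thus went from beside Cdkn1a to below Mdm2.

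Within a genotype the targets did not all follow Cdkn1a. Among transgenic libraries, replicate 2 was highest for Cdkn1a, Ccng1 and Phlda3, and replicate 1 lowest for Cdkn1a, Ccng1, Phlda3 and Mdm2. Among controls, replicate 1 was highest for Cdkn1a and Phlda3 but lowest for Mdm2 and Btg2. Over the 6 libraries, Pearson's r of log2 CPM with Cdkn1a was 0.991 for Ccng1, 0.984 for Mdm2, 0.978 for Phlda3 and −0.610 for Btg2. The other values were −0.921 for Trp53, −0.984 for Cdkn1b, −0.988 for Cdkn2c, −0.968 for Cdkn2d and 0.083 for Cdkn2a. These values describe 6 points that share the difference between the genotypes, and 3132 genes (24.7% of those compared) had an r of at least 0.9.

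The 5 genes whose log2 CPM followed Cdkn1a most closely over the 6 libraries were Tlk2, Irgm1, Ifit1, Phf11d and Slfn2, each with r of at least 0.9997. Their log2 fold changes were 0.46, 1.66, 3.96, 2.73 and 1.21. Irgm1 had 64.6, 48.7 and 54.1 CPM in controls and 166.0, 188.2 and 173.4 CPM in transgenic libraries, the same order of libraries as Cdkn1a. Ccng1, the closest of the 10 genes, had rank 341 of 12700, Mdm2 rank 702 and Phlda3 rank 993.

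The p53 pathway was followed further in 25 other target genes, of which 24 were tested. Of these 13 were raised, 4 lowered and 7 did not pass, against 32.5% raised and 31.5% lowered among all genes tested. The 17 genes that passed had no overlap between the genotypes, a share of the 24 close to the 69.7% of all genes. Their median log2 fold change was 0.30 against −0.019 for all genes tested, and 0.0856 against −0.23 without TMM factors, with 10 raised and 5 lowered. Of the 24, 3 were called up, against 8.9% of all genes tested, and 0 were called down.

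The 3 called targets act outside the cell cycle brake itself. Fas, a death receptor gene, had 3.85, 2.48 and 3.16 CPM in controls and 18.6, 13.8 and 14.5 CPM in transgenic libraries (log2 fold change 2.30, SE 0.185, edgeR adjusted p = 1.1e-05), with no overlap. Psrc1, which encodes a microtubule-associated protein, rose from 8.28 ± 0.714 to 20.8 ± 1.34 CPM (SD, n = 3 each) with a log2 fold change of 1.33 (edgeR adjusted p = 6.34e-06). Gdf15, a secreted stress cytokine gene, rose from 15.2 ± 2.01 to 31.5 ± 1.84 CPM with a log2 fold change of 1.05 (edgeR adjusted p = 3.06e-05).

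The other 10 raised targets had log2 fold changes from 0.28 (Ei24) to 0.998 (Aen, a nuclease gene). Among them were the pro-apoptotic genes Pmaip1 (0.88) and Bax (0.61). Bbc3, encoding Puma, had a log2 fold change of −0.21 with an edgeR adjusted p of 0.126 and Apaf1 one of 0.052 with an adjusted p of 0.628. Of the sestrin genes, Sesn2 was raised (0.90) and Sesn1 lowered (−0.25). Lowered furthest were Ephx1, a detoxifying hydrolase gene (−0.47, edgeR adjusted p = 0.0113), and Xpc, a DNA repair gene (−0.44, edgeR adjusted p = 0.00366). Pmaip1, Bax, Bbc3, Apaf1, Ei24, Aen and the sestrins were chosen for naming after their values were seen.

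**Figure D4:**
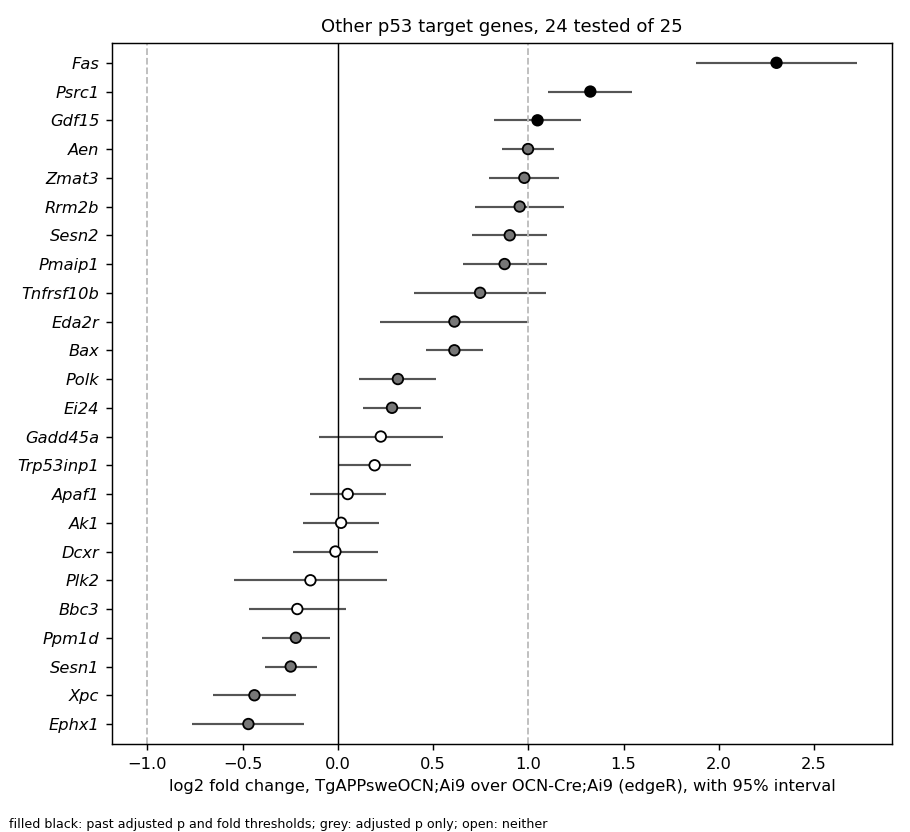
The log2 fold change of TgAPPsweOCN;Ai9 over control (x axis) of the 24 tested p53 target genes outside the 10, with 95% intervals from edgeR and dashed lines at −1 and 1. Fas, Psrc1 and Gdf15 (black) passed both thresholds, 10 further genes were raised and 4 lowered at the adjusted p alone (grey), and 7 did not pass (open).

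Upstream of p53, 15 genes for kinases, ubiquitin ligases, cofactors and family members were listed and 13 tested. Of these 3 were raised, 6 lowered and 4 did not pass, against 32.5% and 31.5% of all genes, with a median of −0.21. Hipk2, a p53 kinase gene with fractional counts in all 6 libraries, was the one called down, from 107.0 ± 15.1 to 52.3 ± 8.62 CPM (SD, n = 3 each, log2 fold change −1.03, edgeR adjusted p = 0.00023). The largest increases were in Cop1, a ubiquitin ligase gene (0.73, edgeR adjusted p = 5.27e-05), and Pml (0.46, edgeR adjusted p = 0.00215). Trp63 and Trp73, the p53 family members, were too low to be tested.

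Among 15 transcription factors other than p53 that are known to act on Cdkn1a, 5 were raised, 6 lowered and 4 did not pass, shares near the 32.5% raised and 31.5% lowered among all genes tested. Klf6 (1.14, edgeR adjusted p = 3.8e-06) and Smad3, a TGF-β mediator (1.11, edgeR adjusted p = 6.82e-07), were called up. Cebpa, a myeloid differentiation factor (−1.99, edgeR adjusted p = 1.96e-07), and Egr1, an immediate early factor (−1.06, edgeR adjusted p = 0.00374), were called down. The median of this list was near 0.

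The kinases and cyclins on which the inhibitors act were mostly lower in transgenic libraries. Of 15 cyclin, CDK and pocket protein genes, 11 were lowered, 3 raised and 1 did not pass, against 31.5% lowered and 32.5% raised among all genes, with a median of −0.48. Called down were Ccnb2 (−1.83), Ccna2 (−1.53) and Cdk1 (−1.31), which act in late cell cycle phases, and Ccnd1 (−1.06), the D-type cyclin partner of Cdk4 and Cdk6. The largest increases were in Ccnd3 (0.76) and Ccne1 (0.62). The FPKM ratio of Ccnd1 to Ccnd3 went from 2.13, 2.35 and 2.31 in controls to 0.745, 0.537 and 0.659 in transgenic libraries. Counts of Ccnd1, Ccnd3 and Ccna2 were fractional in all libraries. All 8 proliferation markers were lowered and 7 called down, against 31.5% and 9.2% of all genes, the furthest being Plk1 (−1.80), Foxm1 (−1.55), Birc5 (−1.38) and Mki67 (−1.27). Their summed FPKM was 363 to 408 in controls and 188 to 200 in transgenic libraries.

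Of the 5 senescence-associated genes, 4 were lowered and 1 did not pass, against 31.5% of all genes lowered. Lmnb1, encoding the nuclear lamina protein lamin B1, fell from 38.2 ± 1.36 to 13.7 ± 2.08 CPM (SD, n = 3 each, log2 fold change −1.48, edgeR adjusted p = 5.4e-06), and the chromatin protein gene Hmgb2 fell from 68.1 ± 0.931 to 26.7 ± 0.783 CPM (log2 fold change −1.35, edgeR adjusted p = 3e-07). Loss of these transcripts is a known feature of senescent cells, and both are also high in dividing cells. The values of Glb1, the lysosomal beta-galactosidase gene, overlapped (−0.10, edgeR adjusted p = 0.583).

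**Figure D5:**
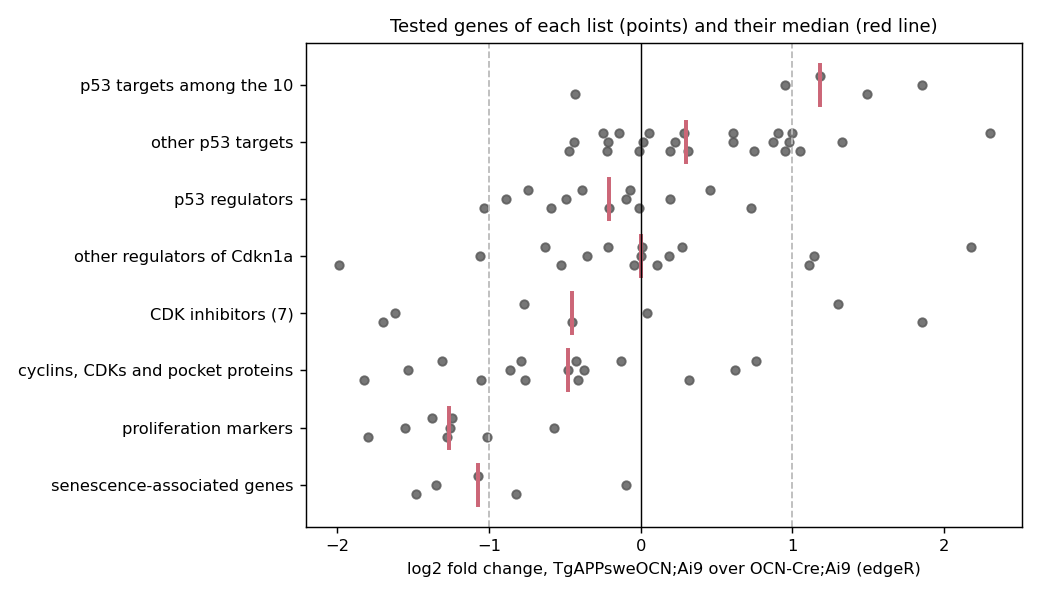
The log2 fold change of TgAPPsweOCN;Ai9 over control (x axis) of each tested gene (points) in 8 lists, with the list's median as a red line. Medians were 1.18 for the p53 targets among the 10 genes, 0.30 for the other p53 targets, −0.45 for the 7 CDK inhibitors and −1.27 for the proliferation markers.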

How the data were processed

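RNA-seq of sorted cells of both genotypes was compared across 6 libraries. The authors removed ribosomal, adaptor and low-quality reads and aligned to mm10, and the submitters' processing notes list HISAT2 2.0.4, Bowtie2 2.2.5, RSEM 1.2.12 and DESeq2 1.4.5. The authors deposited estimated counts per gene, 13.3% to 14.4% of which were fractional in a library, and FPKM values. A second deposited table repeats the FPKM with the authors' own log2 ratios and p-values, which were not used. Columns, genes and lists were matched by label, symbol and gene ID.

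Estimated counts were rounded, filtered by filterByExpr, scaled by TMM and tested with edgeR 4.0.16 (glmQLFit and glmQLFTest, no covariate, biological coefficient of variation 9.85%). SE is the log2 fold change divided by the root of F, and intervals are 95%. limma 3.58.1 on log2(FPKM + 1) or log2(FPKM + 0.1), DESeq2 1.42.0, relative log expression factors, library size only, other filters, a replicate block and leaving out each library were alternatives. A median-centred variant of library size only was added after seeing the data. Scripts were tested on simulated data. Named were the 10 genes, the 3 other CDK inhibitors, up to 4 called genes per list and direction with the largest change (2 past the adjusted p where none was called), and the 5 genes closest to Cdkn1a. The 10 genes and all lists were chosen with earlier results of these data known. Depth was 19340791 to 22037830 counts a library, and the floors given cover counting error only. No batch was given in the labels. Single values of some listed genes are not reported here.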

Additional observations from a re-analysis of the deposited data

How the results depend on the processing

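Over 14 alternatives, 133 of 140 log2 fold changes of the 10 genes kept their direction and side of the adjusted p threshold, and 8 of the 10 genes did so in all 14. The other 7 values belong to Cdkn2a and Btg2. Cdkn2a, not past the threshold in any alternative, turned to −0.18 with library size only, to −0.16 by limma on log2(FPKM + 1) and to −0.17 by limma on log2(FPKM + 0.1), and ranged from −0.069 to 0.16 when 1 library was left out. It was below 0 without control library 2 (−0.035) or TgAPPsweOCN;Ai9 library 1 (−0.069). Scaling by library size only lowers every gene's value by construction. For Btg2 the values ran from −0.69 to −0.18, with adjusted p from 0.00303 to 0.463. Counts of the 10 genes called up were 2 or 3, the lower count coming from Phlda3, and 1 was called down throughout. The added median-centred variant of library size only gave 3 called up and 1 called down. With the replicate block the calls among the 10 stayed at 3 up and 1 down, and those over all genes were 1115 up and 1147 down. Deviations of libraries with the same number correlated at 0.0127, 0.00664 and 0.141, and not every library correlated best with its own number, so the numbers were not taken as pairs. By limma on log2(FPKM + 1), 593 genes were called up and 845 down, and on log2(FPKM + 0.1) 803 and 1500. Depth limits Cdkn1c, Perp, Trp63 and Trp73, with few counts per library.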
